A study of Mus musculus with 586 samples.

Results

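Eomes encodes eomesodermin, a transcription factor of the T-box family, and its level is described here across the spatial transcriptome of the mouse embryo from before to after gastrulation. It was chosen by name, as 1 gene of the 23361 that are listed in all 18 tables of values, with 1 table per embryo. The embryos were C57BL/6 mice with no genetic change or treatment in the labels, collected at embryonic days E5.5 (2 embryos, 22 libraries), E6.0 (2 embryos, 22 libraries), E6.5 (6 embryos, 109 libraries), E7.0 (2 embryos, 101 libraries) and E7.5 (6 embryos, 219 libraries). Geo-seq sequences RNA from small groups of cells that a laser cuts out of cryosections at known positions. Libraries are named by section, counted from 1 at the distal tip, and by a code for the region. The labels do not spell the codes out, and they are read here as in the published atlas: A and P for anterior and posterior epiblast, L and R for its lateral sides, EA and EP for endoderm on the anterior and posterior side, M for mesoderm, which MA and MP split in the same way, and VE for visceral endoderm. The label A/P or EA/EP marks an undivided distal tip.

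In the gastrulating mouse embryo, Eomes is a target of NODAL signalling through SMAD2, SMAD3 and FOXH1, and it is needed for cells to leave the epiblast through the primitive streak and to form cardiac mesoderm and definitive endoderm. The streak arises at the posterior, proximal side of the epiblast and extends distally. Eomes is also known in visceral endoderm, where it acts in anterior patterning, and in trophoblast, the extra-embryonic tissue that lies just proximal to the epiblast.

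Eomes (ENSMUSG00000032446.14) lies on the plus strand of chromosome 9 at 118478212 to 118486132 (GRCm38, GENCODE vM21), with 3 annotated transcripts, of which the longest hold 6 exons. An antisense gene on the minus strand, Gm33460 at 118485559 to 118489099, overlaps its last 574 bases and is not listed in the tables. These bases are an overlap of gene spans, and the Gm33460 exon listed there, of 118 bases, lies within the last exon of the transcript Eomes-201. Strand marking is not stated, so reads from the overlap cannot be told apart. The promoter is printed because every value below is a level of transcript from this gene. It is the 250 bases before the RefSeq start (GRCm38.p6, plus strand), at chr9:118477939-118478188, and capitals mark the CCAAT and TATA-like letters that a search found.

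Eomes promoter: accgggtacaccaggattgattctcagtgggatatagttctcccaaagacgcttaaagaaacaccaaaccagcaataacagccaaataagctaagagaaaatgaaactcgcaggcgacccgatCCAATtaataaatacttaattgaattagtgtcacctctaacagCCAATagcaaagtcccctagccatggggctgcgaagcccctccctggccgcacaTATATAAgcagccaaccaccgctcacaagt

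The letters CCAAT occur at 127 and 84 bases before the start, and 34.5% of 27025 RefSeq promoters of this length hold them on either strand. TATATAA occurs 30 bases before the start, and 3.26% of promoters hold it. The letters TCACACC of a T-box site, AATNNACA of a FOXH1 site, TAATTA of a homeobox site and CTTTGAT of a LEF1/TCF site were not found on either strand, and are held by 3.31, 11.1, 4.9 and 3.23% of promoters. These are matches of letters in this window only.

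Values are FPKM, a level scaled to transcript length and library size, so that genes can be compared with each other. The number of genes that reached 1 FPKM was 2683 to 11319 per library. Depth, worked out from the smallest steps in FPKM, had a median per embryo of 2.08 to 10.5 M reads (1 M = 1000000), where 1 read of Eomes is worth 0.0332 to 0.169 FPKM. Several libraries call for care before the results are read. Section 5 of P in E6.0 embryo 1 went against its label in epiblast genes, section 7 of A in E6.5 embryo 1 had few genes, and section 1 of A in E7.0 embryo 2 held a high level of T. E6.5 embryo 6 was read from a table whose name gives E6.0. It was matched because its description names that embryo and its 30 region codes fit. The values of Eomes within E6.5 are also given without that embryo. E7.5 embryo 6 was far above the other embryos of its stage in P, and E6.5 embryo 1 differed from the other 5 in its tip library.

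The region codes were checked against defining genes. Pou5f1, a gene of the pluripotent epiblast, had median levels of 325 and 306 FPKM in A and P at E6.5, against 10.6 and 14.9 FPKM in EA and EP. The summed level of the visceral endoderm genes Ttr, Afp, Apoa1, Amn and Cubn had medians of 12 and 8.6 FPKM in A and P at E6.5 and of 290 and 837 FPKM in EA and EP. At E5.5 the same sum was 221 FPKM in A and 272 FPKM in P, so the epiblast codes of that stage also held RNA of visceral endoderm genes. The summed level of the trophoblast genes Elf5, Esrrb, Rhox6, Rhox9 and Tpbpa had medians of 0.4 FPKM in A and 0.2 FPKM in P at E6.5, with single libraries up to 27.0 and 10.1 FPKM.

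Eomes was listed above 0 in all but 35 of the 473 libraries and reached 1 FPKM in 349 of them (73.8%). Among the divided regions its mean was highest in P at E7.0, at 59.4 ± 17.3 FPKM (SD, n = 2 embryos), then in P at E6.5, at 48.8 ± 18.6 FPKM (n = 6), and in M at E7.0, at 34.6 ± 2.69 FPKM (n = 2). EP at E6.5 (18.5 ± 11.8 FPKM, n = 2) and L, R and EP at E7.0 followed, the last 3 at means of 16.1 to 17.1 FPKM. These are levels in captured tissue, in which fewer cells of a type and less RNA per cell cannot be told apart. EA at E7.0 stood at 12.3 ± 1.63 FPKM (n = 2), A at E6.5 at 10.8 ± 5.12 FPKM (n = 6) and P at E5.5 at 10.3 ± 8.33 FPKM (n = 2). Means between 5 and 8 FPKM were seen in A at E5.5, E6.0 and E7.0, in EA at E6.5, in VE at E6.0 and in P at E7.5. All other regions of E6.0 and E7.5 that were compared stood below 4 FPKM, and of these A at E7.5 was lowest, at 0.614 ± 0.530 FPKM (n = 6). In this order the only neighbours whose embryos did not overlap were M at E7.0 and EP at E6.5. Of the undivided tips, which this order leaves out, A/P at E5.5 held 43.1 ± 37.2 FPKM (n = 2) and EA/EP at E7.0 held 44.4 FPKM in its 1 library, both above M at E7.0. The single library with the highest level, at 127 FPKM, was section 5 of P in E6.5 embryo 6.

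**Figure D1:**
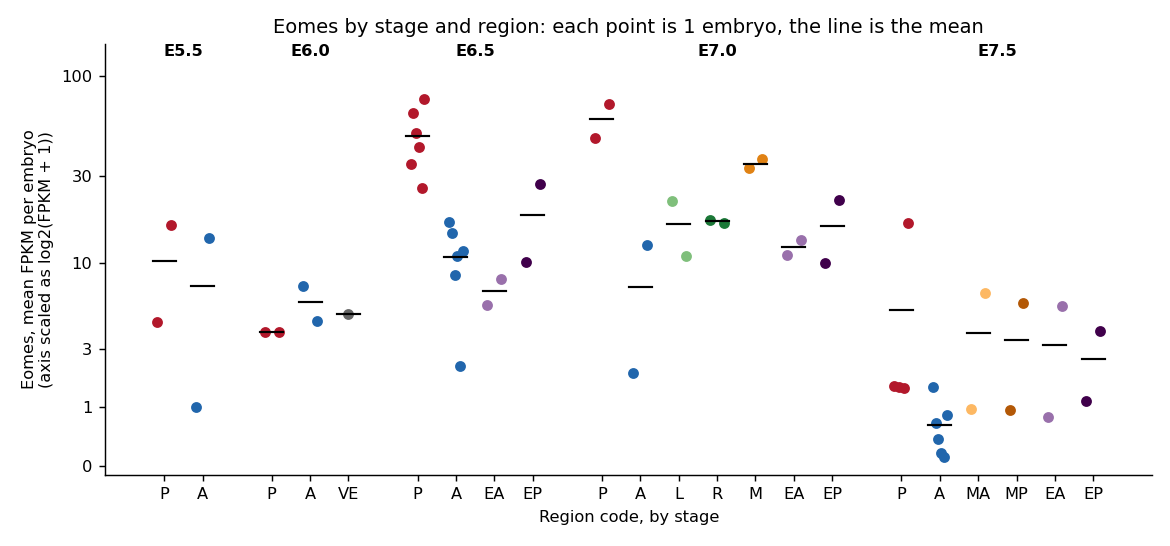
Mean Eomes level per embryo (FPKM, axis scaled as log2(FPKM + 1)) by stage and region code; each point is 1 embryo and the line is the mean over embryos. Of the divided regions drawn, P at E6.5 and E7.0 stands highest, at 48.8 and 59.4 FPKM, and A at E7.5 lowest, at 0.614 FPKM. Codes of E7.5 that only 1 embryo has are not drawn, among them L and R, at 0.019 and 0.0 FPKM.

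At E5.5, before gastrulation, Eomes was highest at the distal tip. The undivided tip held 16.8 FPKM in embryo 1 and 69.4 FPKM in embryo 2. Both tips also held 1827 and 1628 FPKM of the summed visceral endoderm genes and 11.9 and 22.2 FPKM of Lhx1, a homeobox gene of anterior visceral endoderm and streak, so their Eomes cannot be placed in epiblast or visceral endoderm. Above the tip, A of embryo 1 held 0.2, 0.2, 0, 0 and 4.6 FPKM from section 2 to section 6. P of embryo 1 held 9.5, 0, 10.3, 2.5 and 0 FPKM. The A side of embryo 2 went from 49.8 FPKM in section 2 to 1.6 FPKM in section 6, and its P side lay between 7.7 and 26.8 FPKM. The 2 embryos stood further apart in level than their sides did.

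Over sections, P was above A at E5.5 in 7 of 10 sections. The difference of log2(FPKM + 1) was 1.07 ± 0.45 (SE, n = 2 embryos, 1.13 and 1.01, adjusted p = 0.121 in limma, with 15.1% of genes called), which did not pass the threshold of 0.05. In the shallow libraries of this stage 1 read of Eomes is worth about 0.136 and 0.164 FPKM in the embryos' median libraries, so the values near 0 are single reads or none. The visceral endoderm RNA in the epiblast libraries of E5.5 was not separated from Eomes, and its part was not tested.

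At E6.0 Eomes was low on both sides. The tip held 10.5 and 7.7 FPKM in the 2 embryos. A held 10.0, 5.0, 5.6 and 9.0 FPKM from section 2 to section 5 of embryo 1 and 3.8, 3.9, 4.2 and 6.3 FPKM in embryo 2. P held 5.0, 9.1, 1.5 and 0 FPKM in embryo 1 and 4.8, 2.4, 3.1 and 5.2 FPKM in embryo 2. The last P library of embryo 1, at 0 FPKM, goes against its label: Pou5f1 was at 2.03 FPKM, against 160 to 398 FPKM in the other 7 P libraries, and the epiblast list summed to 5.68 FPKM, against 826 FPKM or more. Genes of maternal decidua and blood summed to 1689 FPKM in it and to 137 FPKM at most in the others, and the mesoderm list to 141 and 6.77 FPKM. Results that rest on it are also given without it. The sides overlapped in both embryos, and P exceeded A in 2 of 8 sections. The difference P minus A was -0.71 ± 0.45 on the log2 scale (SE, n = 2, -1.22 and -0.21, adjusted p = 0.550 in limma), and -0.36 without that library (adjusted p = 0.880). No gene was called at E6.0 (0.0%), while 1516 of 11438 genes had an unadjusted p under 0.05. VE libraries, which only embryo 2 has, held 3.4, 7.9, 3.2 and 5.7 FPKM from section 1 to section 4.

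From E6.0 to E6.5 the level in P rose. On libraries rescaled to an equal sum of FPKM, the mean of log2 values in P was 2.40 and 3.02 in the E6.0 embryos and between 4.70 and 6.73 in the 6 E6.5 embryos, with no overlap. The difference was 3.19 ± 0.63 (SE, adjusted p = 0.0287 in limma, with 0.343% of genes called). The call was lost without the P library of E6.0 that goes against its label (2.78, adjusted p = 0.0545) and without each of E6.5 embryos 2 to 6, the last included (3.02, adjusted p = 0.0518). Without E6.0 embryo 1 the difference was 2.88, which rests on 1 embryo of E6.0. In the same comparison Mixl1, a homeobox gene of the streak, rose by 4.59, Fgf8, a growth factor of the streak, by 4.24, T, the T-box gene brachyury, by 3.70, Wnt3, the ligand that starts the streak, by 3.12, and Nodal by 2.91 (adjusted p = 5.5e-06 to 0.0034). In A the level of Eomes differed between these stages by 0.31 ± 0.51 (adjusted p = 1.0, with 0.0782% of genes called).

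At E6.5 the posterior side of all 6 embryos held more Eomes than the anterior side, and the level climbed from distal to proximal. Mean levels per embryo in P were lowest in embryo 5, at 25.9 FPKM, and highest in embryo 6, at 75.7 FPKM, and the median library of P held 42.2 FPKM. In A they ran from 2.27 FPKM in embryo 5 to 16.9 FPKM in embryo 1, with a median library of 6.31 FPKM. The embryo means of the 2 sides did not overlap, and P exceeded A in 36 of 37 sections. The difference of 1.98 ± 0.26 on the log2 scale (SE, n = 6, 0.77 to 2.84 per embryo, adjusted p = 7.5e-04 in limma) was the sixth largest of the 11438 genes tested, of which 0.726% were called. Without embryo 6 it was 1.89 (adjusted p = 0.0065). The median P library held between 208 and 2054 reads of Eomes per embryo.

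**Figure D2:**
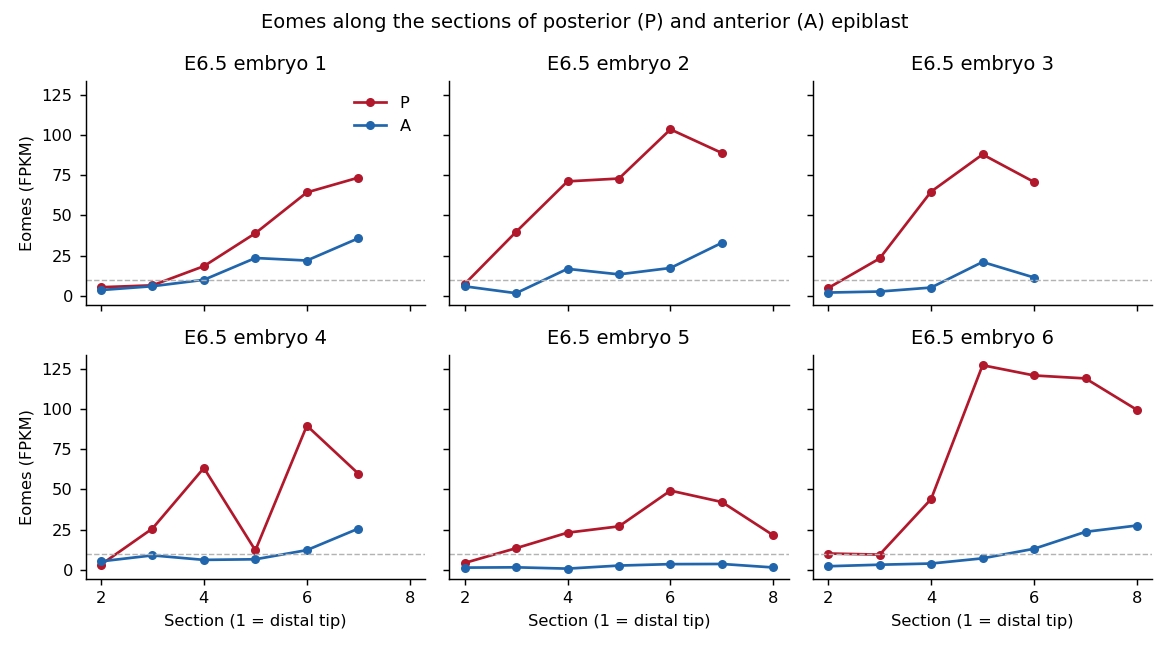
Eomes (FPKM) by section number in P and A of the 6 E6.5 embryos, 1 panel per embryo, with a dashed line at 10 FPKM. Mean levels are 5.96 FPKM in the most distal and 69.0 FPKM in the most proximal section of P, and 3.52 and 22.6 FPKM in those of A.

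Along the axis, the most distal P section of the 6 embryos held 5.47, 7.36, 4.94, 3.36, 4.38 and 10.3 FPKM in order of embryo number. The most proximal P section held 73.5, 88.8, 70.8, 59.8, 21.5 and 99.4 FPKM. Every embryo was higher at the proximal end, and the ends did not overlap. The slope is that of a line fitted by least squares to the log2 values of all sections, with the section number scaled from 0 (most distal) to 1 (most proximal). It can differ from the change between the 2 end sections. The slope in P was 3.31 ± 0.53 (SE, n = 6, 2.23 to 3.99, adjusted p = 0.00101 in limma, with 1.53% of genes called) and 3.20 without embryo 6 (adjusted p = 0.0078). The climb was not smooth in every embryo: P of embryo 4 dipped to 12.2 FPKM in section 5. In embryos 2 to 6 the highest P section lay distal to the most proximal one. It held 103, 87.9, 89.6, 49.3 and 127 FPKM in order of embryo number, so the level fell again towards the proximal end.

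The A side was also higher at its proximal end in 5 embryos. Its most distal section held 3.70, 6.02, 2.15, 5.39, 1.5 and 2.36 FPKM in order of embryo number, and its most proximal section 35.8, 33.0, 11.5, 25.7, 1.60 and 27.6 FPKM. Embryo 5 ended close to its start, and the other 5 ended well above theirs. The slope in A was 2.35 ± 0.53 (SE, n = 6, 0.67 to 3.39, above 0 in 6 of 6), with an adjusted p of 0.248 in limma where 0.0418% of genes were called, and with an adjusted p of 0.0219 where E6.5 was fitted alone. Without embryo 6 the slope in A was 2.14 (adjusted p = 1.0). The slope in P exceeded that in A by 0.96 ± 0.29 (n = 6, above 0 in 6 of 6, adjusted p = 0.311, with 0.252% of genes called), and by 1.06 without embryo 6 (adjusted p = 0.467), so a steeper climb in P did not pass the threshold.

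Trophoblast lies next to the most proximal sections, so its defining genes are given beside them. Their summed level in the most proximal A section was 0.0, 0.535, 3.22, 15.3, 0.0 and 27.0 FPKM in embryos 1 to 6, and in the most proximal P section it was 0.0479, 3.44, 0.183, 7.29, 1.82 and 1.57 FPKM. In embryo 1 Eomes reached 35.8 FPKM in A where all 12 genes of the wider trophoblast list were at 0, although that library had only 5495 genes at 1 FPKM or more and the other libraries of the embryo 9221 or more, so its zeros say less. In embryo 6 it reached 27.6 FPKM where the 12 genes summed to 50.1 FPKM. The part of trophoblast RNA in embryos 4 and 6 was not tested.

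Eomes was at 10 FPKM or more in more E6.5 epiblast libraries than T, Mixl1, Mesp1 or Wnt3, and in fewer than Fgf8. This level of 10 FPKM, chosen after the values were seen, was met by Eomes in 30 of 37 P libraries of E6.5 (81.1%), by Mixl1 in 24, by T in 19, by Wnt3 in 16 and by Mesp1, a factor of early and cardiac mesoderm, in 15. Fgf8 met it in 35 and Nodal in 29. In A, Eomes met it in 15 of 37 libraries (40.5%), Fgf8 in 23 and Nodal in 14, while T and Mixl1 met it in 3 each, Mesp1 in 2 and Wnt3 in 1. These counts depend on each gene's own peak level as well as on its spread along the axis.

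Counted by embryo, Eomes was at 10 FPKM or more in 4, 5, 4, 5, 6 and 6 P sections of embryos 1 to 6, and T in 3, 4, 2, 3, 3 and 4. Eomes thus covered more P sections than T in 6 of 6 embryos, and than Mesp1 in 6 of 6. Its first section at that level was section 2, 3 or 4, where that of T was section 4, 5 or 6. Of the 30 P libraries with Eomes at 10 FPKM or more, 11 had T below 10 FPKM and 15 had Mesp1 below it, 13 of these under 1 FPKM. In A, 12 of the 15 libraries with Eomes at that level had T below it. The reverse was not seen at E6.5: no P or A library had T, Mixl1, Mesp1 or Wnt3 at 10 FPKM or more with Eomes below it. With Fgf8 the order was the other way, as 5 P and 8 A libraries had Fgf8 but not Eomes at that level.

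The climb along P at E6.5 can be set beside that of the other genes. Mesp1 had a slope of 7.58, Mixl1 of 6.86 and T of 6.54 in P at E6.5, against 3.31 for Eomes, while Wnt3 (3.38), Lhx1 (2.85), Fgf8 (2.72) and Gsc, a homeobox gene of the organizer (2.40), were closer to it. All of these passed the threshold (limma adjusted p = 1.9e-10 to 0.0014). Nodal, at 1.02 (adjusted p = 0.239), did not. Slopes of different genes were not tested against each other.

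The pathway genes around Eomes were counted by their roles in the comparison of P with A at E6.5, where 0.586% of all genes were called higher and 0.14% lower, with a median difference of -0.01. None of the 5 NODAL ligands and processing genes tested was called; Nodal itself was at 1.01 ± 0.29 (adjusted p = 0.187). None of the 4 receptors and co-receptors and none of the 4 transducers passed, Foxh1 being at 0.01. Of 6 inhibitors 1 was higher, Fst, which encodes the activin antagonist follistatin (2.31, adjusted p = 3.4e-04). Of 4 T-box genes tested beside Eomes, T was higher (2.43, adjusted p = 4.6e-04). Of 10 genes that textbook genetics places downstream of Eomes 6 were higher and none lower, with a list median of 1.30: Mixl1 (3.36), Mesp1 (2.15, adjusted p = 0.0497), Gsc (1.95), Foxa2, a forkhead gene of endoderm and organizer (1.44), Lhx1 (1.43) and Evx1 (1.17). Of 11 other streak signals and factors 8 were higher, with a list median of 1.51, among them Fgf8 (2.42), Sp5, a WNT target (1.62), and Wnt8a (1.51).

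The tip of E6.5 set 1 embryo apart. The undivided tip held 23.1 FPKM of Eomes in embryo 1 and 2.01, 6.43, 3.23, 4.34 and 3.50 FPKM in embryos 2 to 6. In that tip library Lhx1 stood at 55.1 FPKM, Gsc at 41.4 FPKM, Foxa2 at 30.6 FPKM and the summed visceral endoderm genes at 708 FPKM. In the other 5 tips Lhx1 lay between 0.544 and 6.17 FPKM, Gsc between 0.261 and 5.11 FPKM, Foxa2 between 0.351 and 3.33 FPKM and the visceral endoderm sum between 7.00 and 171 FPKM. The tip is not part of the comparison of P with A.

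Endoderm at E6.5 was captured in embryos 5 and 6. EA held 1.7 to 14.8 FPKM of Eomes in embryo 5 and 2.9 to 11.8 FPKM in embryo 6. EP held 1.4 to 20.1 FPKM in embryo 5 and 8.2 to 60.4 FPKM in embryo 6. EP exceeded EA in 10 of 14 sections, by 1.00 ± 0.32 (SE, n = 2, adjusted p = 0.143 in limma, with 0.217% of genes called). It was 0.60 in embryo 5 and 1.41 in embryo 6, and either embryo alone carries no test. The library with the highest Eomes, section 7 of EP in embryo 6 at 60.4 FPKM, also held 142 FPKM of Mesp1, 82.7 FPKM of Mixl1, 65.2 FPKM of T and 168 FPKM of Pou5f1, where the other 13 EP libraries had medians of 0.341, 18.3, 0.255 and 9.30 FPKM. The mesoderm list summed to a median of 13.5 FPKM in EP, up to 230 FPKM, and to 6.58 FPKM in EA, up to 18 FPKM. The wider trophoblast list of 12 genes summed to a median of 8.55 FPKM in EA and 9.93 FPKM in EP, with up to 51.0 FPKM in a single EP library, and the part of epiblast, mesoderm or trophoblast RNA in the high EP values was not tested.

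Against the epiblast of the same sections, endoderm of E6.5 differed in Eomes by -0.47 ± 0.27 (SE, n = 2, -0.26 and -0.68, adjusted p = 0.122, with 65.8% of genes called, 3.8% higher and 62.0% lower), and by -0.26 without embryo 6. Endoderm was higher in 4 of 14 sections on mean FPKM. The median of all genes was -0.86 in that comparison, so Eomes stood above the median gene. With libraries rescaled to an equal sum, the median was -0.43 and Eomes stood at 0.49 (adjusted p = 0.246), so the direction depends on the scaling. Of 12 genes listed as downstream of Eomes 7 were higher in E6.5 endoderm and none lower, with a list median of 0.96.

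**Figure D3:**
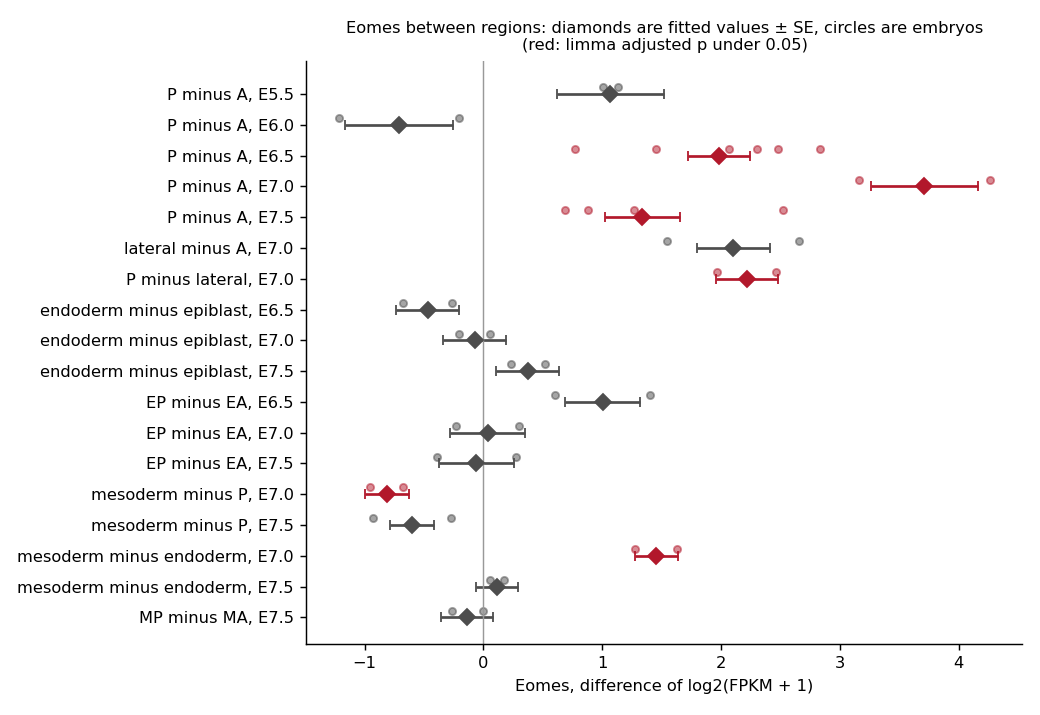
Fitted differences of Eomes between regions on the log2(FPKM + 1) scale, with diamonds for limma estimates ± SE, circles for single embryos and red where the adjusted p was under 0.05. P exceeds A at E6.5, E7.0 and E7.5, by 1.98, 3.71 and 1.34, and mesoderm exceeds endoderm by 1.45 at E7.0. At E7.5 mesoderm minus endoderm is 0.11 ± 0.18, which did not pass the threshold.

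At E7.0, when the streak has extended, Eomes was high along the whole length of P and in the mesoderm beside it. P of embryo 1 held 13.3 FPKM in section 1, peaked at 109 FPKM in section 9 and held 48.9 FPKM in section 11. P of embryo 2 held 58.9 FPKM in section 1, peaked at 122 FPKM in section 3 and ended at 27.7 FPKM in section 11. All 22 P libraries were above 10 FPKM, and the peak lay proximally in embryo 1 and distally in embryo 2. The slope was 1.64 in embryo 1 and -1.53 in embryo 2, which gave 0.06 ± 0.92 (adjusted p = 1.0, with 1.68% of genes called).

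A of embryo 1 held 1.3, 2.8 and 1.9 FPKM in sections 3, 6 and 9. A of embryo 2 held 38.6 FPKM in section 1 and 2.7, 6.2 and 3.3 FPKM further up. The section 1 library stood apart in other genes too, with T at 437 FPKM and Foxa2 at 76.1 FPKM, where P of that section held 58.9 FPKM of Eomes. P minus A on the log2 scale was 4.00, 3.54 and 5.25 in the 3 sections of embryo 1 and 0.60, 5.07, 3.66 and 3.31 in the 4 sections of embryo 2. P was higher in 7 of 7 sections, by 3.71 ± 0.45 (SE, n = 2, 4.26 and 3.16, adjusted p = 1.5e-04 in limma, with 2.92% of genes called), and by 4.14 without the section 1 library of A (adjusted p = 2.4e-05).

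Lateral epiblast of E7.0 lay between the sides. L held 7.5, 12.9 and 45.6 FPKM in embryo 1 and 14.3, 8.8 and 9.7 FPKM in embryo 2. R held 4.9 and 30 FPKM in embryo 1 and 23.3, 14.9 and 12 FPKM in embryo 2. In the 5 sections with all 4 sides, lateral libraries averaged 17.9 ± 5.77 FPKM (SD, n = 2 embryos), A 2.83 ± 1.73 FPKM and P 78.5 ± 8.71 FPKM, and the order A, lateral, P held in every one of them. P exceeded lateral by 2.21 ± 0.26 (SE, n = 2, 1.96 and 2.47, adjusted p = 0.0016 in limma, with 2.44% of genes called). This fit and the next held only the 2 embryos of E7.0, so their p-values lean on the spread of other genes. Lateral exceeded A by 2.1 ± 0.31 (2.66 and 1.55, adjusted p = 0.126, with 0.0105% called), which passed with libraries rescaled to equal medians (2.18, adjusted p = 0.0300) or with no filter on low values (adjusted p = 6.3e-05).

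Mesoderm of E7.0 held less Eomes than P and more than endoderm. M of embryo 1 went from 7.8 FPKM in section 2 to 56.0 FPKM in section 9 and held 27.6 FPKM in section 11. M of embryo 2 went from 62.5 FPKM in section 2 to 16.7 FPKM in section 11. The 2 embryos ran in opposite directions here, as they did in P, with slopes of 1.32 and -1.65. M was below P in all but 1 of 20 sections, by -0.81 ± 0.18 (SE, n = 2, -0.67 and -0.95, adjusted p = 0.0364 in limma, with 14.0% of genes called). That call was lost with libraries rescaled to an equal sum (-0.68, adjusted p = 0.131), and either embryo alone carries no test.

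M was above endoderm in 20 of 20 sections, by 1.45 ± 0.18 (n = 2, 1.63 and 1.27, adjusted p = 0.0039, with 19.6% of genes called). Genes of maternal decidua and blood summed to medians of 3198 FPKM in EA, 5937 FPKM in EP and 430 FPKM in M, and Mesp1 had a median of 34.9 FPKM in EP and 173 FPKM in M. The part of RNA from other tissues in these differences was not tested. EA and EP libraries of E7.0 held 1.3 to 56.1 FPKM and the undivided endoderm tip of embryo 2 held 44.4 FPKM. EP differed from EA by 0.04 ± 0.32 (-0.23 and 0.30, adjusted p = 0.994, with 0.296% called). Endoderm differed from epiblast by -0.07 ± 0.27 (0.06 and -0.20, adjusted p = 0.854, with 35.6% called), and by 0.24 with libraries rescaled to an equal sum. On mean FPKM it was lower in 6 of 6 sections, at 16.3 ± 4.53 against 38.3 ± 8.58 FPKM (SD, n = 2), so the near-zero value holds on the log2 scale only. The slopes were -1.66 ± 0.61 in EA (adjusted p = 0.142, with 4.68% called) and -2.0 ± 0.86 in EP (adjusted p = 0.227, with 3.5% called), so a distal bias of Eomes within endoderm did not pass the threshold. Each embryo's EP slope differed, at -0.05 in embryo 1 and -3.95 in embryo 2.

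The genes beside Eomes parted ways between P and M at E7.0. Cer1, which encodes a secreted NODAL and WNT antagonist (3.04), Lhx1 (1.67), Sox17, a factor of definitive endoderm (1.46), and Cxcr4, a chemokine receptor of migrating mesoderm and endoderm (1.39), were higher in M than in P, and they belong to the 7 of 12 genes listed as downstream of Eomes that were called higher. Mixl1 was the one called lower (-1.74). T (-1.90) and Nodal (-1.67) were lower as well (adjusted p = 0.0043 to 0.0227 for these 7), and Mesp1 did not pass (0.20, adjusted p = 0.764). Of 11 other streak signals and factors 6 were lower and none higher. Over all genes 1.8% were called higher and 12.2% lower, and the median was -0.21. Of the NODAL receptors, Cfc1, the co-receptor cryptic, was higher (2.70, adjusted p = 0.0022), while 9 visceral endoderm genes were tested and 4 were higher in M, where their defining sum had a median of 22.9 FPKM against 1.6 FPKM in P. The part of endoderm RNA in M was not tested.

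In P against A at E7.0, 1.63% of genes were called higher and 1.29% lower. Nodal was the 1 ligand of 5 called (2.45, adjusted p = 0.0084). Tdgf1, the NODAL co-receptor cripto, was the 1 receptor of 4 called (3.93, adjusted p = 0.0033). The inhibitors Fst (5.38) and Lefty2 (4.90), itself a NODAL target, were higher, as were T (5.94) and Tbx6, a T-box gene of paraxial mesoderm (2.41). All 11 other streak signals and factors were higher, with a list median of 2.41 against 0.05 for all genes, and 6 of 10 genes listed as downstream of Eomes, with a list median of 2.00. None of the 4 transducers passed.

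Between E7.0 and E7.5 Eomes fell steeply in P. On libraries rescaled to an equal sum the mean of log2 values in P was 7.09 and 6.81 in the E7.0 embryos and 2.03, 2.49, 1.95 and 4.21 in E7.5 embryos 3 to 6, with no overlap. The change was -4.28 ± 0.67 (SE, adjusted p = 0.0028 in limma, with 0.452% of genes called), the second lowest value of 14594 genes tested. Without E7.0 embryo 1 the change was -4.14, which rests on 1 embryo of E7.0. Among the comparison genes Lhx1 fell with it (-3.33, adjusted p = 9.0e-04), Tbx6 rose (2.87, adjusted p = 0.0253), and T was at 1.36 (adjusted p = 0.593). In A the change of Eomes was -2.49 ± 0.51 (adjusted p = 0.0536, with 0.149% called) and passed without E7.5 embryo 6 (-2.55, adjusted p = 0.0396), but was -2.07 without the section 1 A library of E7.0 embryo 2 (adjusted p = 0.128).

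At E7.5 Eomes was low in P of 3 embryos and stayed higher in P of the fourth. P averaged 1.56, 1.54 and 1.5 FPKM in embryos 3, 4 and 5 and 16.7 FPKM in embryo 6. In embryo 6, P held 30.3 FPKM in section 1, stayed above 20 FPKM up to section 6 and went through 11.6 and 5.7 FPKM to 0.80 FPKM in section 10. Embryos 3 to 5 overlapped throughout, and embryo 6 stood above them distally but not in its most proximal sections. A averaged 1.53, 0.672, 0.377, 0.167, 0.111 and 0.824 FPKM in embryos 1 to 6.

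**Figure D4:**
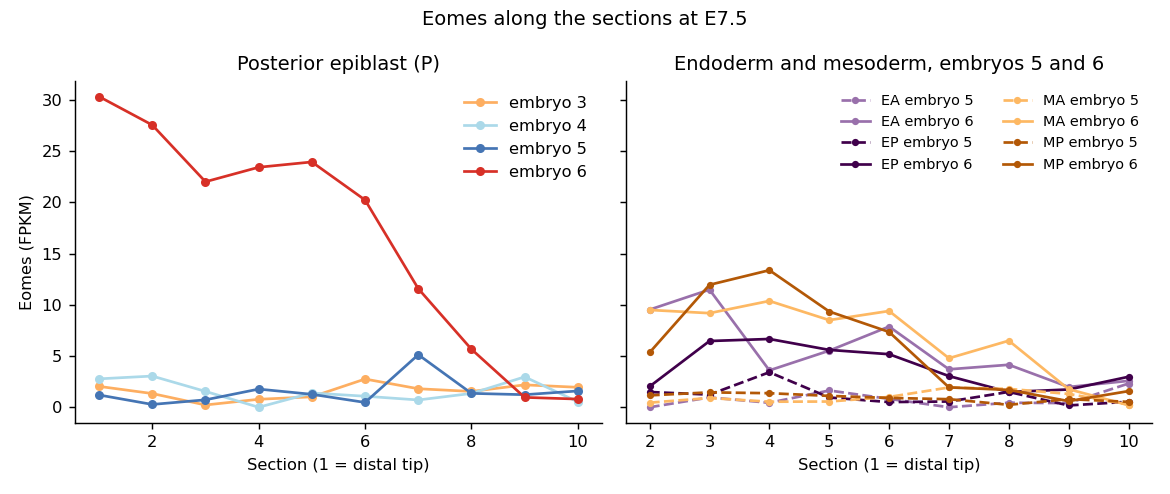
Eomes (FPKM) by section number at E7.5, with P of embryos 3 to 6 in the left panel and endoderm and mesoderm codes of embryos 5 and 6 in the right panel. P of embryo 6 holds 30.3 FPKM in section 1 and 0.80 FPKM in section 10, while embryos 3 to 5 average 1.5 to 1.56 FPKM.

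P minus A at E7.5 was 1.34 ± 0.32 on the log2 scale (SE, n = 4, 0.68 to 2.52, adjusted p = 0.0090 in limma), higher in 4 of 4 embryos and in 19 of 19 sections, where 13.9% of all genes were called. The median A library held 2.9, 0.0, 0.8 and 5.9 reads of Eomes in embryos 3 to 6, and the median P library 33.1, 12.5, 8.9 and 166.9 reads. A thus lay near the floor, and some of these sections set a few reads against single reads or none. Without embryo 6 it was 0.94 (adjusted p = 0.0787). Without a paired design, that is with A and P libraries of an embryo taken as unrelated, it had an adjusted p of 0.257. The slope in P was -0.86 ± 0.65 (n = 4, adjusted p = 0.485, with 1.03% called), at -4.16 in embryo 6 and -0.57 to 0.70 in the other 3.

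The high level in embryo 6 was not limited to P, though A did not stand apart. A of embryo 6 averaged 0.824 FPKM, below the 1.53 FPKM of embryo 1 and above the other embryos. Its EA averaged 5.60 FPKM against 0.779 FPKM in embryo 5, the only other embryo with these codes, its EP 3.91 against 1.15 FPKM, its MA 6.69 against 0.972 FPKM and its MP 5.91 against 0.928 FPKM. Other genes of P moved with it. Mesp1 stood at 104 FPKM in P of embryo 6 and at 3.53 to 7.60 FPKM in embryos 3 to 5. Lefty2 stood at 73.2 FPKM against 1.24 to 3.20 FPKM, and Tdgf1 at 120 FPKM against 9.79 to 12.9 FPKM. T was at 798 FPKM against 322 to 444 FPKM, while Mixl1 (108 FPKM against 49.3 to 159 FPKM) and Fgf8 (37.9 FPKM against 18.1 to 61.1 FPKM) lay within the range of the others.

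Between the layers of E7.5, which rest on embryos 5 and 6, Eomes showed no difference that passed. Mesoderm differed from P by -0.60 ± 0.18 (SE, -0.27 and -0.93, adjusted p = 0.0505, with 26.3% of genes called), and E7.5 fitted alone gave an adjusted p of 0.0244. Mesoderm differed from endoderm by 0.11 ± 0.18 (adjusted p = 0.676, with 15.1% called), endoderm from epiblast by 0.37 ± 0.27 (adjusted p = 0.352, with 19.1% called), EP from EA by -0.06 ± 0.32 (adjusted p = 1.0, with 0.266% called) and MP from MA by -0.13 ± 0.22 (adjusted p = 1.0, with 3.44% called). Of the genes listed as downstream of Eomes, 3 of 10 were higher in P than in A at E7.5 (Mixl1, Evx1 and Mesp1) and 1 lower (Cer1), and the list median of 0.13 was at that of all genes, 0.15. All 11 other streak signals and factors were higher, with a list median of 3.45. Those shares stand beside 10.4% of all genes called higher and 3.44% lower.

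Whether the differences themselves changed between stages was tested after the values were seen. P minus A changed by -1.78 ± 0.64 from E5.5 to E6.0 (adjusted p = 0.0824, with 11.1% of genes called), by 2.69 ± 0.52 from E6.0 to E6.5 (adjusted p = 0.0856, with 0.0262% called), by 1.73 ± 0.52 from E6.5 to E7.0 (adjusted p = 0.287, with 0.28% called) and by -2.37 ± 0.55 from E7.0 to E7.5 (adjusted p = 0.0661, with 0.603% called). The second of these passed without E6.5 embryo 1 (2.94, adjusted p = 0.0284), and was 3.20 without E6.0 embryo 2, which leaves 1 embryo at E6.0. The last passed without E7.5 embryo 6 (-2.77, adjusted p = 0.0102) or without the section 1 A library of E7.0 embryo 2 (-2.80, adjusted p = 0.0161). Without the section 5 P library of E6.0 embryo 1 the first was -1.43 (adjusted p = 0.160) and the second 2.34 (adjusted p = 0.131). None passed with all embryos, nor did the change from E6.5 to E7.5 (-0.65 ± 0.41, adjusted p = 0.455, with 4.03% called). The change of M minus endoderm from E7.0 to E7.5 was -1.34 ± 0.25. It ranked 10 by p among 9910 genes, of which limma called 0 (0.0%) and 261 had an unadjusted p under 0.05. Without E7.0 embryo 2 it was -1.52, which rests on 1 embryo of E7.0. The change of mesoderm minus P was 0.21 ± 0.26 (adjusted p = 0.901, with 0.0305% called) and that of endoderm minus epiblast from E6.5 to E7.5 was 0.84 ± 0.38 (adjusted p = 0.0805, with 37.0% called and a median of 0.78 over all genes).

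The slope in P was tested between stages in the same way. It was -1.51 ± 0.92 at E5.5 (adjusted p = 0.323, with 11.3% called) and -1.38 ± 0.92 at E6.0 (-2.92 and 0.15, adjusted p = 0.470, with 0.396% called). The -2.92 of E6.0 embryo 1 rests on the section 5 library that goes against its label, without which that embryo has too few P sections for a slope. From E6.0 to E6.5 it rose by 4.69 ± 1.06 (adjusted p = 0.0455, with 0.791% called). Without E6.0 embryo 1 the rise was 3.16, a value that also leaves that library out and rests on 1 embryo of E6.0. Leaving out any of the E6.5 embryos ended that call (4.56 to 4.91). From E6.5 to E7.5 it fell by 4.17 ± 0.84 (adjusted p = 0.0225, with 0.482% called), and by 3.07 without E7.5 embryo 6 (adjusted p = 0.0826). Its call also ended without E7.5 embryo 4 (-4.26) and without E6.5 embryo 1, 3, 4 or 6 (-4.20 to -4.03). From E6.5 to E7.0 the change was -3.25 ± 1.06 (adjusted p = 0.221, with 1.15% called). T (-6.77), Mixl1 (-5.58) and Mesp1 (-3.60) also lost slope from E6.5 to E7.5 (adjusted p = 2.7e-06 to 0.0093), and Fgf8 was at -0.08 (adjusted p = 1.0).

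Over all 473 libraries, the genes whose log2 levels followed Eomes most closely were Tdgf1 (Pearson r = 0.79), Fgf5, a growth factor of the epiblast (0.66), Lhx1 (0.64), Nodal (0.63), Il17rd, an FGF signalling inhibitor (0.61), Gsc (0.60), Fgf8 (0.60), Pmepa1, a TGF-beta target (0.58), Car2, a carbonic anhydrase (0.58), Spry4, an FGF signalling inhibitor (0.58), the pseudogene Npm3-ps1 (0.57), whose reads may be shared with Npm3, and Epha2, an ephrin receptor (0.57). They lead 7884 genes. Mixl1 ranked 28 (0.49), Mesp1 99 (0.40) and T 3139 (0.20). The genes that ran most against Eomes were Crabp2, a retinoic acid binding protein (-0.46), G0s2 (-0.42) and H2-Q4 (-0.40). Libraries of an embryo share their stage, depth and source, so these values describe the set and carry no test. Rank correlation kept 10 of the 12 genes and rescaling to an equal sum 11, while the median of the correlations within each stage kept 1, Fgf8, which then ranked 1 at 0.67. Tdgf1 followed Eomes closely in E7.0 (0.86) and E7.5 (0.76) and not at E5.5 (0.07).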

How the data were processed

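Geo-seq libraries of 586 samples are described by the labels, which do not say whether embryos came from separate litters, so p-values measure the spread between these embryos. The authors deposited FPKM values, for which the submitters' processing notes name TopHat2 2.0.8b, Cufflinks 2.1.1 and the build mm10. The annotation and the options of these tools are not given in the sources used here. Embryo, section and region code tied columns to samples: 473 samples had a column, 113 had none, and 111 columns could not be matched and were left out. Most of these are E7.5 columns coded P, L or R in embryos whose labels use B, C and D.

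The embryo was the replicate. Regions were compared on log2(FPKM + 1) within each section and averaged per embryo. Slopes were fitted by least squares to the log2 values of all sections of a region, scaled from 0 (most distal) to 1 (most proximal). They used embryos with at least 4 sections. Stage levels used libraries rescaled to a sum of 1000000. All genes with a mean of at least 1 FPKM in at least 1 stage were fitted in limma 3.58.1 (R 4.3.3; trend and robust empirical Bayes, stages sharing 1 spread per gene), with Benjamini-Hochberg adjustment and a threshold of 0.05. No spread was shared between stages for the lateral comparisons, MP minus MA, the slope in M and the difference of slopes at E6.5. These fits held 1 stage each. The procedure was tested on simulated data. The log2(FPKM + 1) scale understates changes of low values. Pairing was checked from deviations of A and P from their stage means: same-embryo correlations across genes were 0.660 to 0.889 at E6.5 (9541 genes; at most 0.549 between embryos) and 0.461 to 0.759 at E7.5 (9684 genes; at most 0.0349). Deviations from a mean of the same embryos lower the values between embryos by construction, so the gap overstates the pairing. Libraries of 1 embryo come from the same animal.

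Eomes, the comparison genes and the gene lists were chosen with earlier results of these data known. Genes named beside Eomes are 11 fixed comparison genes, the 12 most like and the 3 least like it (among genes reaching a mean of 5 FPKM in a stage and region), up to 4 members per list with the smallest p, and list members named where they carry a count. Tbx6, Lefty2 and Tdgf1 values outside that rule were chosen after their values were seen. Alternatives were a pseudocount of 0.1 FPKM, other scalings, no filter, single-stage fits, no pairing, leaving out embryos and, added after the values were seen, leaving out 3 libraries that stand apart. Tables were made in Python 3.11.15 (pandas 2.3.3, numpy 2.4.6, scipy 1.17.1) and drawn with matplotlib 3.10.9.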

Additional observations from a re-analysis of the deposited data

Results flagged for a closer look

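In 11 groups of 4 to 10 embryos, mean levels of Eomes, P minus A differences or slopes were checked for a single embryo far from the rest. By Dixon's test 2 stood out, both of them mean levels, where chance alone marks about 1 in 20 groups. The groups share embryos, so they are not independent. The undivided distal tip of E6.5 embryo 1 held 23.1 FPKM, and its gap to the next of the 6 tips was 0.790 of their range. P of E7.5 embryo 6 averaged 16.7 FPKM, and its gap to the next of 4 embryos was 0.996 of their range. The distal to proximal slope of Eomes in P differed between stages. It was 4.69 higher on the log2 scale at E6.5 than at E6.0 (limma adjusted p = 0.0455), a call that ended without any of the E6.5 embryos. It was 3.16 higher without E6.0 embryo 1, 1 of whose 4 P libraries goes against its label, which leaves 1 embryo at E6.0. At E7.5 it was -4.17 relative to E6.5 (adjusted p = 0.0225), and -3.07 without E7.5 embryo 6, where that call ended.

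The codes E1, E2, M1 and M2 of E7.5 embryo 4 entered no comparison, since their meaning is not given in the labels. Eomes was nevertheless above the worth of 3 reads in some libraries of each. Its highest value was 3.15 FPKM in E1, where 6 of 9 libraries were above that level, 1.05 FPKM in E2 (2 of 9), 2.43 FPKM in M1 (2 of 9) and 1.02 FPKM in M2 (3 of 9).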

How the results depend on the processing

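Of 464 alternative values of 48 results, 388 kept their direction and side of the threshold; of 116 for the 11 called results 76 did and 0 reversed. Where a value below differs in call or direction, the cause was not tested. With no replicate block, that is without the pairing within embryos, calls ended for P minus A at E7.5 (1.34, limma adjusted p = 0.257), mesoderm minus P (-0.81, 1.0), mesoderm minus endoderm (1.45, 0.209) and P minus lateral (2.21, 0.365) at E7.0.

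With a pseudocount of 0.1 FPKM, mesoderm minus P at E7.0 (-0.83), the slope changes in P from E6.0 to E6.5 (6.31) and E6.5 to E7.5 (-4.30), and E6.5 minus E6.0 in P (3.72) did not pass. The changes of P minus A from E5.5 to E6.0 (-2.70) and of endoderm minus epiblast (1.38) did. The change of P minus A from E6.5 to E7.5 (0.61), endoderm minus epiblast at E7.0 (0.052) and EP minus EA at E7.5 (0.16) turned. With libraries rescaled to an equal sum, endoderm minus epiblast at E6.5 (0.49) and E7.0 (0.24) and the slope in P at E7.0 (-0.19) turned, and mesoderm minus P at E7.0 (-0.68) and the slope change to E6.5 (4.74) did not pass. With equal medians, lateral minus A passed (2.18), the slope in P at E7.0 turned (-0.047), and mesoderm minus P at E7.0 (-0.72) and the slope change to E6.5 (4.36) did not pass. With no filter, lateral minus A passed (2.1), and mesoderm minus P at E7.0 (-0.81) and the slope changes to E6.5 (4.69) and E7.5 (-4.17) did not. With a stage fitted alone, mesoderm minus P at E7.5 (-0.60) and the slope in A at E6.5 (2.35) passed. Next, 3 libraries that stand apart were left out in turn, after the values were seen. Leaving out section 5 of P in E6.0 embryo 1 ended the call of E6.5 minus E6.0 in P (2.78). The slope in P at E6.0 then turned (0.15) and its change to E6.5 was 3.16, both resting on 1 embryo of E6.0. Without section 1 of A in E7.0 embryo 2, the change of P minus A from E7.0 to E7.5 passed (-2.80). Without section 7 of A in E6.5 embryo 1 all 8 results kept call and direction. Within-stage correlations kept 1 of the 12 genes most like Eomes.

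Leaving out 1 embryo at a time gave ranges that crossed the threshold or 0: P minus A at E7.5 0.94 to 1.56, its changes from E6.0 to E6.5 2.19 to 3.20 and from E7.0 to E7.5 -2.92 to -1.82; endoderm minus epiblast at E7.0 -0.20 to 0.058; mesoderm minus P at E7.0 -0.95 to -0.67 and its change -0.12 to 0.54; the change of mesoderm minus endoderm -1.52 to -1.16; EP minus EA 0.60 to 1.41 at E6.5, -0.23 to 0.30 at E7.0 and -0.39 to 0.28 at E7.5. The slope in P ran from -2.92 to 0.15 at E6.0, -1.53 to 1.64 at E7.0 and -1.38 to 0.24 at E7.5, its changes from 3.16 to 6.23 (E6.0 to E6.5) and -4.69 to -3.07 (E6.5 to E7.5). Lateral minus A (1.55 to 2.66) and the slope in M (-1.65 to 1.32) have no adjusted p with 1 embryo left. Between stages in P the values ran from -2.11 to 0.42 (E6.0 minus E5.5), 2.88 to 3.49 (E6.5 minus E6.0) and -4.79 to -4.04 (E7.5 minus E7.0), and in A from -0.38 to 2.39 (E6.0 minus E5.5) and -2.89 to -2.08 (E7.5 minus E7.0). P minus A at E6.5 (1.81 to 2.23) and the slope in P at E6.5 (3.17 to 3.53) kept their calls. P minus A (3.16 to 4.26) and mesoderm minus endoderm (1.27 to 1.63) kept their direction at E7.0. Where a stage has 2 embryos, such a fit rests on 1 embryo and takes its spread from other stages. A call kept, gained or lost there is no test of that stage, though the counts above include such fits. Depth limits the lowest levels. In the median library, 1 read of Eomes is worth 0.0332 to 0.0485 FPKM in E6.5 embryos 1 to 4 and E7.5 embryos 1 to 3. It is worth 0.1095 to 0.169 FPKM in all other embryos, E7.5 embryos 4 to 6 included.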
